A study of Homo sapiens with 3 samples.

Results

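The regions described here are the double-stranded RNA (dsRNA) regions that lie at 5 well-known microRNA loci in HEK 293 cells, a line derived from human embryonic kidney. They were taken by position in hg19, and the loci were picked with earlier results of these data known. The intervals were chromosome 13, 92002700 to 92003800, for MIR17 to MIR92A1; chromosome 7, 99691000 to 99691900, for MIR25, MIR93 and MIR106B; chromosome 9, 96938000 to 96941400, for MIRLET7A1, MIRLET7F1 and MIRLET7D; chromosome 3, 160122200 to 160122750, for MIR15B and MIR16-2; and chromosome 17, 57918500 to 57918800, for MIR21. Of 271645 paired regions in the series, 15 overlapped these intervals, and no locus was without a region. The chromosome 13 interval held 2 regions, that on chromosome 7 held 4, that on chromosome 9 held 5, that on chromosome 3 held 3 and that on chromosome 17 held 1.

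The study compared wild-type HEK 293 cells with HEK 293 cells labelled as a Dicer knockdown, with 1 dsRNA library for each, and added a DICER chromatin immunoprecipitation (ChIP-seq) library from wild-type cells. The labels do not say how Dicer was depleted, and both dsRNA groups are the same cell line. Total RNA was digested with T1 nuclease, which cuts single-stranded RNA after guanosine, and what was left was sequenced. For each library a region carries a summit, which is the height of its coverage as a whole number. The deposited sheets are named normal and induced. They were read here as wild type and knockdown, on those names alone, so if that reading is wrong every direction below reverses. With 1 library a group, every fold below compares these libraries and no p-value was computed. In bulk RNA, a change in RNA per cell and a change in the share of cells cannot be told apart, and the DICER1 locus itself was not analysed here. Coordinates are printed as deposited.

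MicroRNAs are made from hairpins folded within a longer primary transcript. The nuclease DROSHA frees the hairpin in the nucleus, and DICER then cuts off its loop, leaving a short duplex from which the guide strand is loaded into an Argonaute protein. Bases 2 to 8 of the guide, the seed, pair with target messenger RNAs, so microRNAs with the same seed form a family. The MIR17 to MIR92A1 locus, known as the miR-17-92 cluster, and its relative MIR106B, MIR93 and MIR25 are known for promoting proliferation. The let-7 family is known for restraining growth and MYC and RAS genes, the miR-15 and miR-16 family for restraining the cell cycle and BCL2, and miR-21 for repressing tumour suppressors such as PDCD4.

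RefSeq (build GRCh38.p14) held mature sequences for 15 of the 15 hairpins. The guide strands are shown because they define the families within these loci. Each is written 5′ to 3′ with the seed in capitals. The miR-17 and miR-18 seeds differ from each other, and the chromosome 13 and chromosome 7 loci share the miR-17 seed:
miR-17-5p (MIR17): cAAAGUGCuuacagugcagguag
miR-20a-5p (MIR20A): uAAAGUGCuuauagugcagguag
miR-106b-5p (MIR106B): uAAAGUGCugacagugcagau
miR-93-5p (MIR93): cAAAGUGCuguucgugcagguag
miR-18a-5p (MIR18A): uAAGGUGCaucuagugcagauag
The miR-19 and miR-92 seeds follow, the latter again shared by the chromosome 13 and chromosome 7 loci:
miR-19a-3p (MIR19A): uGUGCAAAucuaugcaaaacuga
miR-19b-3p (MIR19B1): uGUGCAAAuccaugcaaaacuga
miR-92a-3p (MIR92A1): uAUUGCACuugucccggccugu
miR-25-3p (MIR25): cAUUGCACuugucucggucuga
The 3 let-7 guides share a single seed, as do miR-15b and miR-16, while miR-21 stands alone among these loci:
let-7a-5p (MIRLET7A1): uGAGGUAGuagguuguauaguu
let-7f-5p (MIRLET7F1): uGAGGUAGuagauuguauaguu
let-7d-5p (MIRLET7D): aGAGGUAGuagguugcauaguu
miR-15b-5p (MIR15B): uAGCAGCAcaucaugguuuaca
miR-16-5p (MIR16-2): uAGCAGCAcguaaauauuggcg
miR-21-5p (MIR21): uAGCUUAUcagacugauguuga

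The hairpins on which the results turn are shown next, with the mature strands held in the RefSeq set used in capitals. That set held 1 mature strand for MIR21 and 2 for each of the others shown. MIR21 had the highest fold, MIR15B and MIR16-2 are neighbours with very different summits, and MIRLET7A1 and MIRLET7D moved in opposite directions:
MIR21 hairpin: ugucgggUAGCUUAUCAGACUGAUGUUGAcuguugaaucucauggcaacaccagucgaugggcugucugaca
MIR15B hairpin: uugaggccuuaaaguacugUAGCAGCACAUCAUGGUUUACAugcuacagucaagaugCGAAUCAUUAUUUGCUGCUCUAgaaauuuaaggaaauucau
MIR16-2 hairpin: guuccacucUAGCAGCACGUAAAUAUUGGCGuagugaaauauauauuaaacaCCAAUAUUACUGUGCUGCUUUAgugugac
MIRLET7A1 hairpin: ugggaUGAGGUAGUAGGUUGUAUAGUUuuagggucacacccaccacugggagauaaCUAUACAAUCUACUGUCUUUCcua
MIRLET7D hairpin: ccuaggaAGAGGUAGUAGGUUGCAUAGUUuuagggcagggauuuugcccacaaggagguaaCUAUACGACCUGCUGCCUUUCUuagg

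Folded in silico with RNAfold, the 14 hairpins whose full sequence was used had minimum free energies from -44.4 kcal/mol (MIR106B) to -21.1 kcal/mol (MIR18A). The MIR21 hairpin had the largest paired share, 64 of 72 bases (88.9%), and none of its 20 guanosines was left unpaired in that fold. MIR16-2 had the lowest paired share, 52 of 81 bases (64.2%), with 2 of 15 guanosines unpaired. MIR17 and MIR25 each had 9 unpaired guanosines, of 23 and of 31. These are predicted folds, and their part in the summits was not tested.

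Every one of the 15 hairpins was overlapped by a region. Hairpin positions came from general knowledge of hg19, because no hg19 annotation was used. Their lengths equalled those in RefSeq for 59 of 59 hairpins listed, and the spacing of neighbours within 10 kb was the same for 30 of 31 pairs. Of the 15 regions, 10 overlapped a hairpin and 5 did not. The edges of several regions lay close to the hairpin. In wild type the MIR106B region began 1 bp inside the hairpin and ended 9 bp past it, and the MIR21 region began 10 bp before it and ended 2 bp past it. At MIRLET7F1 the region reached 6 bp before and 13 bp past the hairpin. Some regions spanned several hairpins, and since each region has a single summit, the hairpin that carries it is not recorded there.

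**Figure D1:**
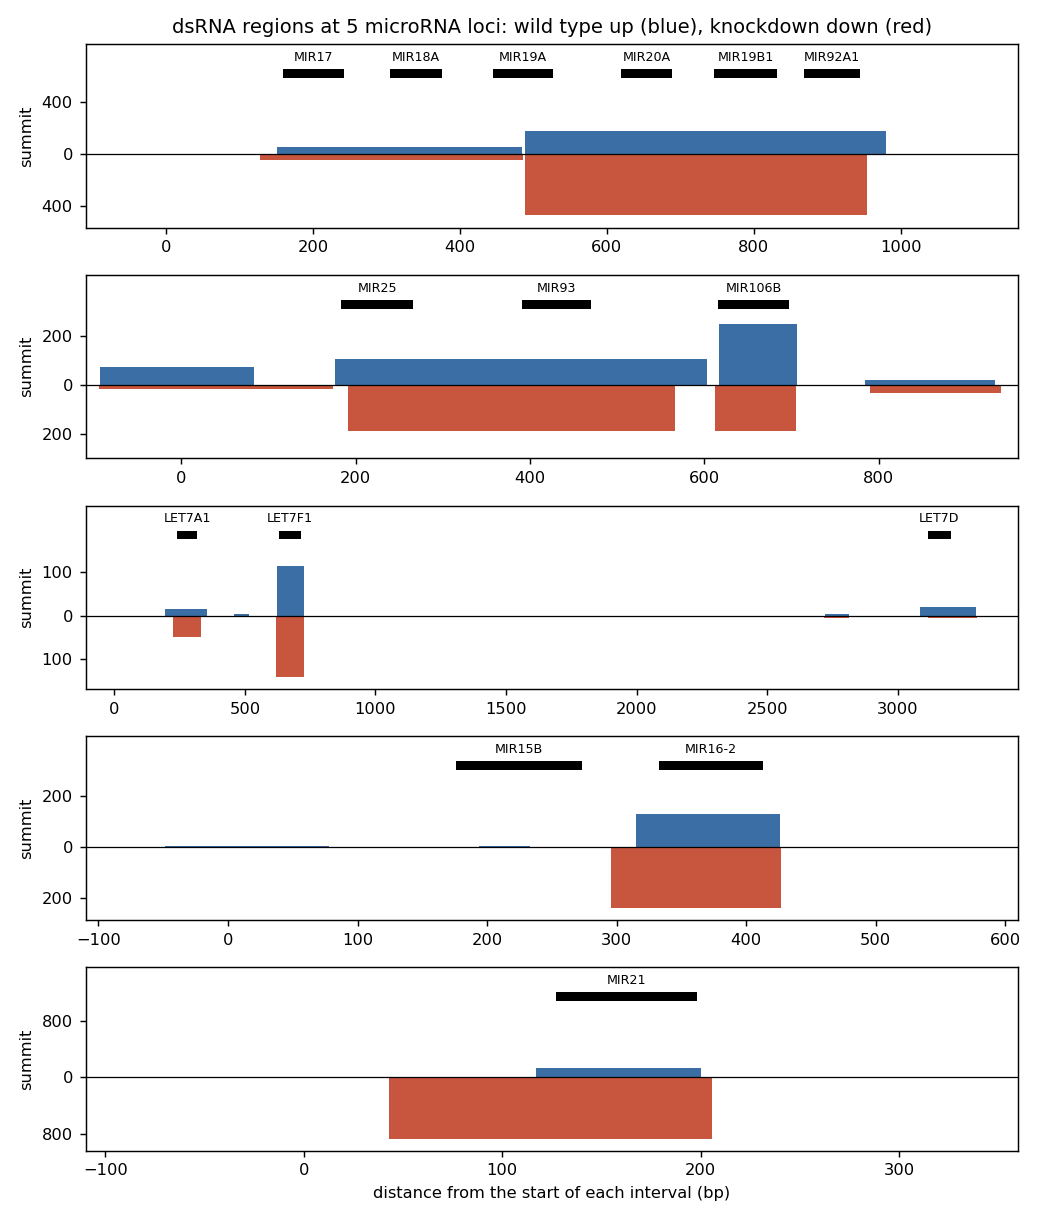
Positions and summits of the regions at the 5 loci, from chromosome 13 at the top through chromosomes 7, 9 and 3 to chromosome 17. The x axis is the distance from the start of the interval in bp, blue blocks rise to the wild-type summit, red blocks reach down to the knockdown summit, and black bars are hairpins. Each block is drawn flat at its single summit. The MIR21 region reached 131 in wild type and 866 in knockdown, and widened from 83 to 163 bp.

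MIR21 lies within VMP1 in RefSeq. Its region, at chromosome 17, 57918617 to 57918700 in wild type and 57918543 to 57918706 in knockdown, had summits of 131 and 866, in that order. After scaling, the knockdown summit was 6.33-fold the wild-type one (exact binomial 95% interval 5.26 to 7.67, which covers counting error only and takes the height as a count of reads). Of 1335 regions in the series whose combined summit was 0.5 to 2 times that of MIR21, 4 had a ratio at least as high (0.300%). The region was also wider in knockdown, and on the 5′ side it began 84 bp before the hairpin instead of 10 bp.

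The second chromosome 13 region covered part of MIR19A and all of MIR20A, MIR19B1 and MIR92A1, within the host gene MIR17HG. It ran from 92003188 to 92003680 in wild type and to 92003654 in knockdown, with summits of 177 and 473. The fold was 2.56 (95% interval 2.15 to 3.06), and 4.00% of 1752 regions of similar level had a ratio at least as high. The first chromosome 13 region, from 92002851 to 92003185, covered MIR17, MIR18A and the first part of MIR19A. Its summits were 57 and 43, a fold of 0.723 with an interval of 0.475 to 1.09 that includes no difference. Its direction also flips with the scaling, to a log2 ratio of 0.078 under the median-ratio scaling. The regions meet within MIR19A, and the intervals of their folds do not overlap. The deposited boundary, 3 bp wide in wild type, decides which hairpins share a summit.

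On chromosome 7, where the hairpins lie within MCM7, a gene for a subunit of the replicative helicase, the region of MIR25 and MIR93 had summits of 105 and 187. It ran from 99691176 to 99691603 in wild type. The fold was 1.71 (95% interval 1.34 to 2.19). The neighbouring MIR106B region, from 99691617 to 99691706, was the highest of the 15 in wild type and was lower in knockdown, with summits of 251 and 189. Its fold was 0.721 (95% interval 0.594 to 0.874), and 34.3% of 2283 regions of similar level had a ratio as low. Its log2 ratio of -0.47 became 0.076 under the median-ratio scaling and 0.020 when the top 1% of regions did not count towards the sums. The MIR17, MIR20A, MIR106B and MIR93 hairpins share a seed. The regions at the MIR17 and MIR106B hairpins gave log2 ratios of -0.46 and -0.47. Each was below the adjoining hairpin region of the same locus, which holds MIR20A (1.35) or MIR93 (0.76). At levels similar to that of the MIR17 region, 48.9% of 8739 regions had a ratio as low.

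The let-7 locus on chromosome 9 had regions on both sides of equality. The MIRLET7A1 region, from 96938196 to 96938354, had summits of 16 and 48, a fold of 2.87 (95% interval 1.60 to 5.42). The MIRLET7F1 region, from 96938623 to 96938728, was the highest of the locus with summits of 114 and 140, and its fold of 1.18 had an interval of 0.912 to 1.52. The MIRLET7D region, from 96941084 to 96941298, fell from 19 to 5, which is 3.97-fold lower (95% interval 1.43 to 13.6). That last region reached 96 bp past the hairpin in wild type, and 18.9% of regions of similar level had a ratio as low. All 3 lie within the RefSeq gene MIRLET7A1HG.

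MIR15B and MIR16-2, within SMC4, a condensin subunit gene, had the widest gap between neighbours. The MIR16-2 region, from 160122515 to 160122626, had summits of 129 and 240, a fold of 1.78 (95% interval 1.43 to 2.22). The MIR15B region, from 160122394 to 160122433, had summits of 1 and 4, too low for a ratio to be read. In wild type it covered only 39 bp inside the 98-base MIR15B hairpin.

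The other 5 regions overlapped no hairpin. On chromosome 7, the region from 99690907 to 99691083 fell from 74 to 15, 5.15-fold lower (95% interval 2.93 to 9.66). In knockdown it ended within 20 bp of the MIR25 hairpin. The region on the other side of that locus, from 99691784 to 99691933, had summits of 22 and 34, with an interval of the fold of 0.841 to 2.66. The 3 remaining regions, on chromosomes 9 and 3, had summits of 3 to 5 in wild type and 3 or 4 in knockdown.

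**Figure D2:**
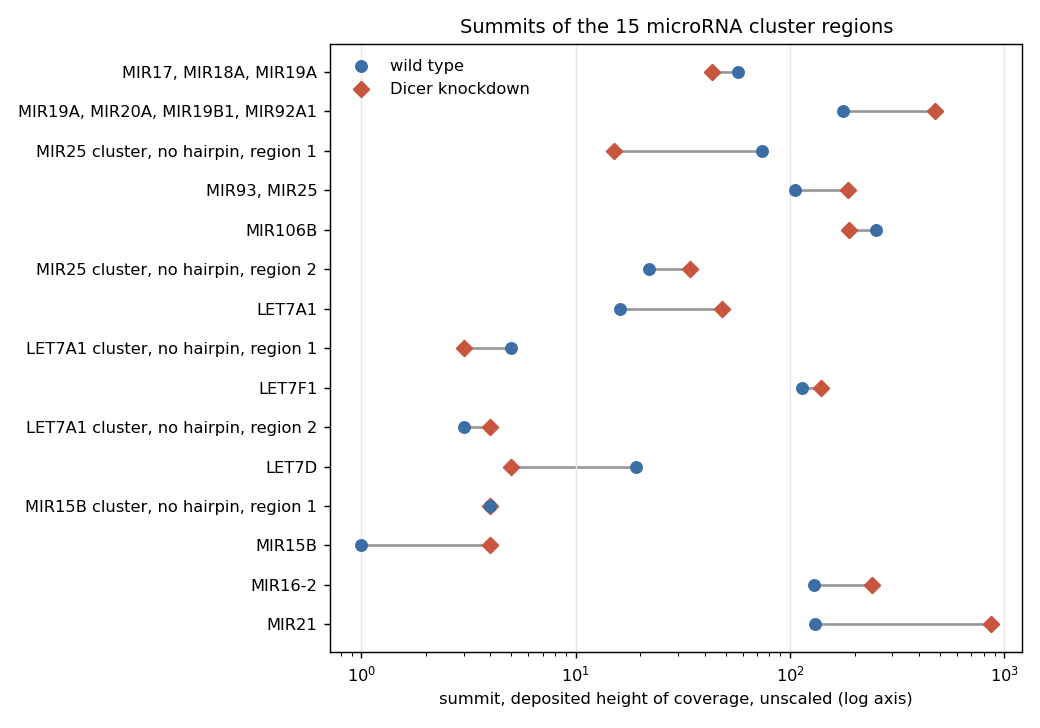
Summits of the 15 regions, 1 row each, on a log axis of deposited heights with no scaling. Blue circles are wild type and red diamonds are Dicer knockdown, with 1 library each and no error bars. MIR21 has the longest rise, from 131 to 866, and the chromosome 7 region beside MIR25 a long fall, from 74 to 15.

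The order of the summits differed between the libraries. In wild type MIR106B was highest at 251, followed by MIR19A to MIR92A1 at 177. MIR21 at 131, MIR16-2 at 129, MIRLET7F1 at 114 and the region of MIR25 and MIR93 at 105 came next, and among these 4 no neighbours in the order differed beyond counting error. In knockdown MIR21 was highest at 866, then MIR19A to MIR92A1 at 473 and MIR16-2 at 240. MIR106B at 189 and the region of MIR25 and MIR93 at 187 did not differ beyond counting error, and MIRLET7F1 followed at 140. All of these were far below the loci that hold most of the signal, and the 15 regions made up 0.00138% of the summed summits in wild type and 0.00268% in knockdown. None of the 15 was among the 1003 regions of the deposited final set, which holds regions above 1500 in both libraries.

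A ratio was counted where the combined summit was 20 or more, which 11 of the 15 regions reached. By 2-fold or more, 3 of the 11 were higher in knockdown, where 5.07% of the 35876 regions of the series at that minimum were. The 3 were MIR21, MIRLET7A1 and MIR19A to MIR92A1. By 2-fold or more, 2 of the 11 were lower, the MIRLET7D region and the chromosome 7 region beside MIR25, where 30.8% of all regions were. MIRLET7A1 (16 and 48) and MIRLET7D (19 and 5) reached the minimum mainly through the library where each was higher. Under the median-ratio scaling the counts were 6 higher and 2 lower, where 12.8% and 17.7% of all regions were. They were the same when the top 1% of regions did not count towards the sums, where 11.5% and 18.4% of all regions were. By any size, 7 of the 11 were higher, against 26.9% of all regions. The median log2 ratio over the 11 was 0.55, beside -0.53 over all 35876 regions, and the SD over the 11 was 1.44. In the 5587 regions whose combined summit lay between 100 and 1000, the median was -0.28, 32.5% were higher by any size and 5.03% by 2-fold, while 5 of the 7 hairpin regions in that range were higher and 2 were higher by 2-fold.

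Regions at hairpins and regions beside them are set side by side here. The split was made after the values were seen, so it is given as a description and the difference was not tested. Over the 9 regions that overlapped a hairpin and reached the minimum, the median log2 ratio was 0.76, with 6 higher and 3 lower. Counting regions within 20 bp of a hairpin takes in the chromosome 7 region that fell from 74 to 15. The median over those 10 regions was 0.50, with 6 higher and 4 lower. Within 5 kb on either side of the intervals lay 66 further regions, of which 19 reached the minimum. Their median was -0.57, with 6 higher and 13 lower, and with 1 higher and 8 lower by 2-fold. Over all 35876 regions the median was -0.53, with 73.1% lower by any size and 30.8% by 2-fold. The flank median was -0.92 with a minimum combined summit of 10 (32 regions) and -0.16 with 50 (9 regions). Most of those, 14 of the 19, lay around the chromosome 7 locus and had a median of -0.91. There the region from 99686849 to 99687056 had summits of 120 and 84, that from 99695231 to 99695341 had 54 and 8, and that from 99695758 to 99695921 had 30 and 3. These 3 were picked after their values were seen. Around MIR21, 4 flanking regions reached the minimum with a median of 0.23, and the highest in knockdown, from 57917716 to 57917791, had summits of 16 and 42. Under the median-ratio scaling the medians rose, to 1.31 over the regions that overlapped a hairpin and to -0.03 in the flanks.

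**Figure D3:**
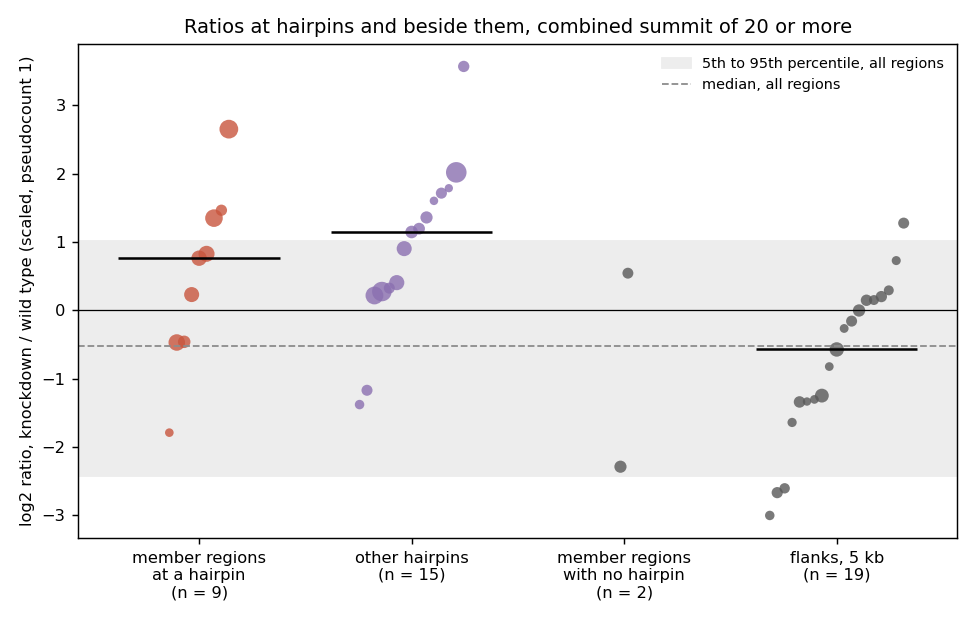
Log2 ratio of knockdown to wild type for single regions that reached a combined summit of 20, scaled to the summed summits with a pseudocount of 1. Point area grows with the combined summit, black bars are medians (not drawn for the 2 member regions with no hairpin), and the grey band spans the 5th to 95th percentile of all 35876 regions, -2.42 to 1.01. Regions that overlap member hairpins have a median of 0.76 and flanking regions a median of -0.57.

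A further 30 microRNA hairpins were listed for comparison, some from the same families and others from different ones. Of these, 25 were overlapped by a region. By contrast, of 14 hairpins known from liver, blood, muscle, heart or pluripotent cells, 2 were: MIR133A2, a muscle microRNA, with summits of 4 and 6, and MIR155, known from activated lymphocytes, with 7 and 22. Among the other hairpins, 15 distinct regions reached the minimum, with a median log2 ratio of 1.15. Higher ratios were found at 13 and lower ratios at 2. By 2-fold or more, 8 were higher and 2 lower, against the 5.07% and 30.8% of all regions. Among the 8 were MIR16-1 (4 and 61), MIR27A (13 and 47), MIR222 (5 and 18) and MIR363 (4 and 17). These reached the minimum mainly through the knockdown summit, so the count of 8 leans on it. The 2 lower by 2-fold were MIRLET7B, with 40 and 18, and MIR484, with 24 and 9. Under the median-ratio scaling, 9 were higher by 2-fold and 0 lower, against 12.8% and 17.7% of all regions. By combined summit the highest was MIR182, whose summits were 370 (wild type) and 1571 (knockdown), 4.06-fold higher on the pseudocount scale. Next by combined summit came MIR10A, from a HOXB locus, with 585 and 740, and MIR221 with 320 and 389. MIR183 had 86 and 169, MIR7-1 had 31 and 73, MIR30C1 had 24 and 66, and MIR30E had 22 and 54. MIR27A had 13 and 47.

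**Figure D4:**
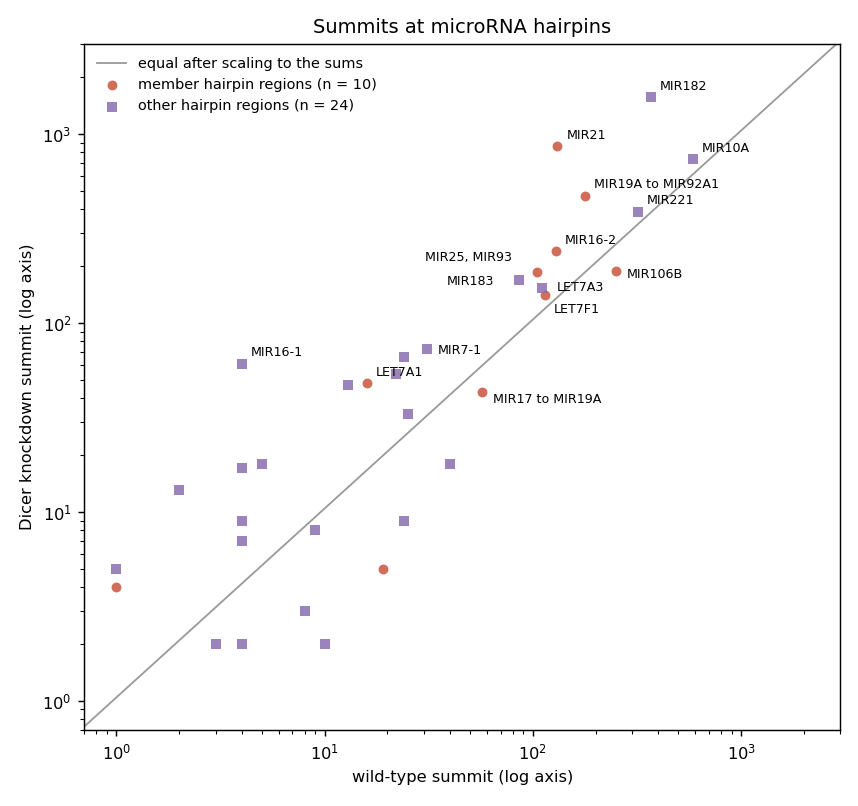
Summits in wild type (x) and Dicer knockdown (y) at microRNA hairpins, both on log axes, 1 point for the highest region at each hairpin. Red circles are the 10 member regions at hairpins, purple squares the 24 distinct regions at other hairpins, and the line marks equality after scaling to the summed summits. MIR182, MIR21 and MIR16-1 lie far above the line. MIR106B lies below it, and MIRLET7D, MIRLET7B and MIR484 are among those that lie further below.

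Several guides are encoded at more than 1 locus, so a read of the guide alone cannot be placed by sequence. The miR-16 guide of MIR16-2 is also in MIR16-1, with a longest shared run of 23 bases between the hairpins, and the let-7a guide of MIRLET7A1 is also in MIRLET7A2 and MIRLET7A3, with runs of 23 and 28 bases. MIR19B1 and MIR92A1 share their guides with MIR19B2 and MIR92A2, and MIRLET7F1 with MIRLET7F2. Summits differed between such copies: MIR16-2 had 129 and 240 while MIR16-1 had 4 and 61, and MIRLET7A1 had 16 and 48 while MIRLET7A3 had 111 and 154. The labels do not say where such reads were counted, and their part in the summits was not tested.

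None of the 119 DICER ChIP peaks overlapped the 5 intervals, and none overlapped any of the 59 hairpins listed. The nearest peak lay 4743121 bp from the MIR15B and MIR16-2 interval, 8097047 bp from that of MIR21 and 15097351 bp from that of let-7. The deposited list is a single library with a lowest score of 100.2, so weaker binding at these loci was not analysed here.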

How the data were processed

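The 3 libraries of HEK 293 cells were used, 1 per group, so no test between groups was possible. Per the submitters' processing notes, hg19 was the build throughout. The notes list BWA 0.7 and bcl2fastq 1.8.4 for dsRNA, and MACS 1.4 and Bowtie 0.12.7 for ChIP. How dsRNA regions were called is not stated in the labels. Each deposited dsRNA sheet gives a coverage signal, the summit of each region, as a whole number not normalized by library size. The workbooks attached to the 2 dsRNA samples were identical and 1 copy was used. The deposited peak list carries the authors' score, used here only for its lowest value, and its positions were used for overlap. The deposited final set gives positions only.

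Rows of the sheets were paired, and a row counted as a member when either library's coordinates overlapped an interval by 1 bp or more. Knockdown summits were multiplied by 0.958 to match the wild-type sum of summits. The log2 ratio and the 2-fold calls used a pseudocount of 1, which understates the change of low regions. Folds with an interval have no pseudocount, and the exact binomial 95% interval (Clopper-Pearson) treats both summits as read counts, which is an assumption, and covers counting error only, as reads without molecular identifiers are not independent molecules. The library depths are unknown. Regions were assigned to a hairpin within 20 bp for the lists, and by overlap with the hairpin itself where said. The rule for named items took every member region and the 10 other hairpins with the highest combined summit, and MIR16-1 is given among the shared guides. Other items named were chosen after their values were seen. The members and lists were chosen with earlier results of these data known. Sequences and host gene names are from RefSeq, GRCh38.p14, whose coordinates were neither printed nor converted. Folds were predicted with RNAfold 2.7.2, and ratios computed with Python 3.11.15, numpy 2.4.6, pandas 2.3.3 and scipy 1.17.1. The scalings and calls were run on simulated data with known changes, made only from regions of high combined summit and with counting noise alone. A pass was required of the median-ratio scaling only, so it is no check of the main scaling or of low regions. Alternatives were other scalings, pseudocounts, minimum summits, overlap rules and hairpin margins.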

Additional observations from a re-analysis of the deposited data

How the results depend on the processing

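The library depths are unknown, so the scaling is a choice. Scaling to the median ratio raised the log2 ratio of well-covered regions by about 0.55, and taking the sums without the top 1% of regions raised it by 0.49. With these, the median log2 ratio of the microRNA cluster regions was 1.08 and 1.02, and 6 and 6 regions were 2-fold higher. The regions of MIR17 and MIR18A, which share a summit, turned to 0.078 and 0.022, and that of MIR106B to 0.076 and 0.020. A pseudocount of 10 gave a median of 0.41 and 1 region 2-fold lower, with MIRLET7D at -0.97 and MIR15B at 0.33. A minimum combined summit of 50 left 10 regions, with a median of 0.65 and 1 region 2-fold lower, because the MIRLET7D region dropped out. The rule that the wild-type midpoint lie inside the interval also gave 0.65 and 1, because it leaves out 1 region beside MIR25. Without scaling, with a pseudocount of 0.5, with a minimum combined summit of 10 and with the coordinates of either library alone, none of the counts of 2-fold regions changed. MIR21, MIR16-2, MIRLET7A1, MIRLET7F1, the MIR25 and MIR93 region, and that of MIR19A to MIR92A1 were higher in knockdown under every scaling and pseudocount tried. The settings could not have turned these lower, so they do not test that direction. Every other scaling raised the ratios, no scaling by 0.062, and a pseudocount cannot change their sign. The MIRLET7F1 interval of 0.912 to 1.52 includes no difference. MIRLET7D could have turned under those scalings and stayed lower, at -1.32 under the median-ratio scaling. Neither the MIR15B region nor the 3 lowest regions reached the minimum. The settings for hairpin regions and flanks were chosen after seeing the data. No paired analysis was possible because there was a single library per group.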

Other observations

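The MIR182, MIR96 and MIR183 hairpins, a cluster known from sensory organs and from many tumours, all had higher summits in knockdown. MIR182 had 370 and 1571, MIR96 had 2 and 13, and MIR183 had 86 and 169. The MIR96 summits did not reach the minimum for a ratio to be counted. The relative of the miR-17-92 cluster on the X chromosome was low in both libraries. The region at MIR92A2 had summits of 25 and 33 and ended short of the MIR19B2 hairpin in both libraries. MIR363 had 4 and 17 and MIR20B had 1 and 5, while no region lay at MIR106A or MIR18B. In the MIR23A, MIR27A and MIR24-2 cluster, MIR27A had 13 and 47 and no region lay at the other hairpins.

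Directions differed within some seed families. Of the let-7 hairpins, MIRLET7A1 (16 and 48) and MIRLET7A3 (111 and 154) were higher in knockdown. MIRLET7F1 (114 and 140) had a fold interval of 0.912 to 1.52, which includes no difference. MIRLET7D (19 and 5) and MIRLET7B (40 and 18) were lower, and 18.9% and 26.1% of regions of similar level had ratios as low. MIRLET7E had 8 and 3. In the miR-92 family the 4 hairpins whose guides were compared, MIR92A1, MIR25, MIR92A2 and MIR363, lay in regions higher in knockdown. Guides of other hairpins of that family were not compared. MIR92A1 and MIR25 share their summits with hairpins of other families, so those rises cannot be assigned to them. The MIR92A2 fold had an interval of 0.729 to 2.22, which includes no difference, and MIR363 was low, with 4 and 17. In the miR-16 family MIR16-1 had the highest ratio of all hairpins listed, with 4 and 61, and its knockdown region began 1 bp before the hairpin and ended at its last base. MIR15A beside it had 3 and 2, as low as MIR15B with 1 and 4, so in both miR-15 and miR-16 loci the miR-16 hairpin carried the higher knockdown summit. These values were picked after they were seen and no test was made.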
